A study of Mus musculus with 4 samples.

Results

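Malat1-rich RPE barcodes were the barcodes of the 2-month libraries that carried retinal pigment epithelium (RPE) transcripts together with a high level of the nuclear RNA Malat1. A barcode counted as RPE when it held at least 300 genes, at most 30% mitochondrial UMIs, under 5% hemoglobin UMIs, and at least 4 of 9 RPE markers whose summed UMIs made up at least 0.5% of its total. Malat1 then had to reach 5000 CPM, that is, UMIs per 1000000 UMIs of the barcode. This rule found 265 barcodes among 2079 RPE barcodes at 2 months, out of 7943 barcodes in all 4 libraries of the series. The barcodes were thus chosen by their measured levels of the 9 markers and of Malat1, with limits on genes, mitochondrial RNA and hemoglobin, so the levels of the 9 markers and of Malat1 below describe the choice and test nothing.

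The study profiled single cells of the posterior of the mouse eye by droplet RNA sequencing in Vldlr-/- and wild-type animals at 1 and 2 months of age, with 1 library per genotype and age. The retina was lifted off, the RPE and choroid were scraped and digested with collagenase A, Dispase II and trypsin, and dead cells were removed. Tissue of several animals was pooled. The strain, the number of animals in a library and the deleted part of Vldlr are not given in the sources used here. With 1 library per group, nothing below has a replicate check, and the genotype cannot be told apart from the pool of animals and the library that carry it. Intervals are exact 95% binomial intervals that cover counting error only.

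The RPE is the pigmented sheet behind the photoreceptors. It recycles the visual chromophore, engulfs shed outer segments, moves nutrients and fluid to and from the choroid, and holds melanosomes. Vldlr encodes a lipoprotein receptor that takes up triglyceride-rich particles and binds reelin, and mice lacking it develop abnormal vessels under and within the retina. Malat1 is a long noncoding RNA held in nuclear speckles. Unspliced transcripts are also nuclear, and reads from introns add most to long genes. Droplet libraries therefore record nuclear RNA through Malat1, through other chromatin-bound noncoding RNAs and through long genes, whereas mature messenger RNA is mostly cytoplasmic.

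In the knockout library 127 of 612 RPE barcodes were Malat1-rich (20.8%, interval 17.6 to 24.2%), against 138 of 1467 in the wild-type library (9.41%, interval 7.96 to 11.0%). Barcodes under 1000 CPM, called Malat1-poor here, numbered 433 in the knockout and 1287 in the wild type, and 52 and 42 lay between the limits. At 1 month the same rule found 15 of 172 barcodes in the knockout (8.72%, interval 4.96 to 14.0%) and 10 of 236 in the wild type (4.24%, interval 2.05 to 7.65%). The share was thus higher in the knockout at both ages, with overlapping intervals at 1 month.

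**Figure D1:**
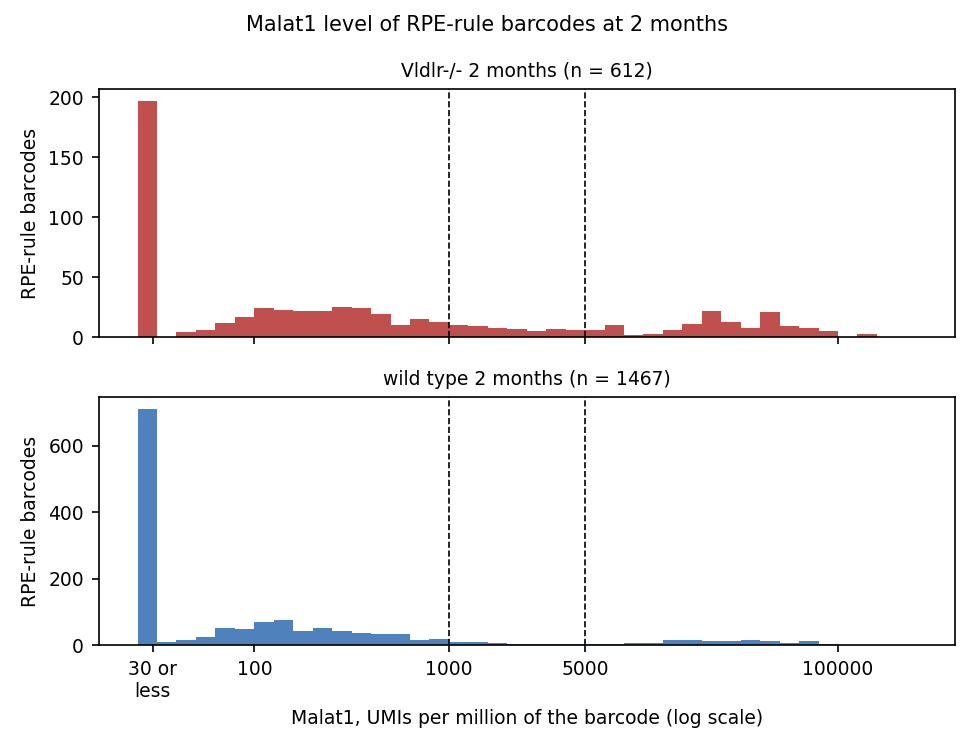
Number of RPE barcodes (y axis) at each Malat1 level in CPM (x axis, log scale) in the Vldlr-/- (top) and wild-type (bottom) libraries at 2 months; dashed lines mark 1000 and 5000 CPM. Most barcodes sit at the low end, and 127 knockout and 138 wild-type barcodes lie at or above 5000.

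Just inside the limit of 5000, the knockout barcodes had 5111, 5181 and 5336 Malat1 CPM and the wild-type ones 5463, 5701 and 5744. They held 1174, 1544 and 937 UMIs in the knockout and 30020, 36312 and 21763 in the wild type. Just outside it, the values were 4630, 4688 and 4789 in the knockout and 4431, 4782 and 4865 in the wild type. These barcodes held 864, 640 and 26727 UMIs in the knockout and 677, 10666 and 6372 in the wild type. For the smallest barcodes near the limit, a few Malat1 UMIs decided the side. The limit fell in a thinly filled stretch between a large low group and a smaller high one. Within the Malat1-rich barcodes, the median Malat1 level was 27480 CPM in the knockout and 25628 in the wild type.

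The rule used the 9 RPE markers, so their levels are given as a description of the barcodes it chose. Each of 8 of the 9 markers was found in 80 to 100% of the Malat1-rich barcodes, and the other was Best1, a basolateral chloride channel, with 0 UMIs in the knockout and 1 in the wild type. Best1 was as sparse in the Malat1-poor barcodes, with 2 and 5 UMIs. Rpe65, the isomerase of the visual cycle, stood at 5478 CPM over the summed barcodes in the knockout and 4310 in the wild type. Ttr, which carries retinol and thyroid hormone, had 40900 and 34225 CPM. Rgr, an opsin of the visual cycle, had 11283 CPM in the knockout and 7324 in the wild type, and Rlbp1, a retinaldehyde carrier, had 2314 and 2149.

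Other cell classes in these libraries reached the Malat1 limit more often. Malat1 reached 5000 CPM in 87.1% of knockout and 91.7% of wild-type fibroblast-like barcodes, in 78.3% and 75% of endothelial-like ones, and in 88.4% and 89.7% of mural-like ones. Rod-like barcodes reached it in 52.2% and 58.7%. RPE barcodes under 1000 CPM made up 70.8% of their class in the knockout and 87.7% in the wild type, against 45.7% and 34.8% of rod-like, 8.16% and 19.6% of macrophage-like and 5.04% and 2.75% of fibroblast-like barcodes. Among the classes compared, barcodes under the lower limit were therefore not found in the RPE alone.

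The Malat1-rich barcodes held 3828910 UMIs in the knockout and 3225464 in the wild type, and the libraries held 16292472 and 23070271. No barcode sequence was shared between the libraries. Both pools held barcodes with Xist and barcodes with Y-linked RNA, in different proportions. Of the Malat1-rich barcodes, 64 in the knockout and 28 in the wild type had at least 3 Xist UMIs and no Y-linked UMI, while 36 and 70 had at least 3 Y-linked UMIs and no Xist. Where the genotype ratio of a named gene differed most between these kinds, both values are given.

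Markers of other cell classes were low but not absent. At least 3 markers of another class making up at least 0.1% of UMIs were present in 14 knockout (11.0%) and 20 wild-type (14.5%) Malat1-rich barcodes, against 3 (0.693%) and 8 (0.622%) Malat1-poor ones. Fibroblast markers summed to 203 CPM in the knockout and 172 in the wild type, where fibroblast-like barcodes themselves had 14094 and 11593. Rod markers summed to 48.1 CPM in the knockout and 248 in the wild type, endothelial markers to 116 and 224, and mural markers to 665 and 453. Bipolar markers gave 203 and 320 CPM with Grm6, Vsx1 and Cabp5 at 0. The part of such mixed barcodes in the results was not tested beyond leaving them out.

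The Malat1-rich barcodes were larger than the Malat1-poor ones in both genotypes. Their median was 24482 UMIs and 5027 genes in the knockout and 19327 UMIs and 4558 genes in the wild type, against 9042 UMIs and 2207 genes and 8090 UMIs and 2246 genes in Malat1-poor barcodes. When every barcode was thinned to 2000 UMIs, the Malat1-rich ones still showed more genes, with medians of 1003 in the knockout and 1008 in the wild type against 815.5 and 858. Thinning left out 8 and 11 Malat1-rich and 49 and 72 Malat1-poor barcodes. The ribosomal-RNA-linked loci Gm42418 and AY036118 took a median of 5.90% and 6.51% of UMIs in Malat1-rich barcodes, against 20.9% and 15.4% in Malat1-poor ones.

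The long-gene share is the percent of UMIs in genes of at least 100 kb. It leaves out mitochondrially encoded genes, Malat1 and the loci at least 2-fold lower in Malat1-rich barcodes in both libraries. They were left out of the total as well. The loci left out include the long genes Cmss1, Gphn and Camk1d. The median share was 14.4% in Malat1-rich barcodes of the knockout and 17.9% in the wild type, against 11.8% and 10.8% in Malat1-poor barcodes. After thinning the medians were 15.3% and 17.6%, against 11.9% and 10.6%. The spread was wide among Malat1-rich barcodes, 5.67 to 63.4% in the knockout and 4.48 to 54.1% in the wild type, whereas no Malat1-poor barcode exceeded 17% and 17.3%. Long genes and the nuclear noncoding RNAs were not part of the rule. The loci left out of the long-gene share were picked by the same comparison, however. The share therefore describes these barcodes and tests nothing, and its value with those loci is not given here.

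**Figure D2:**
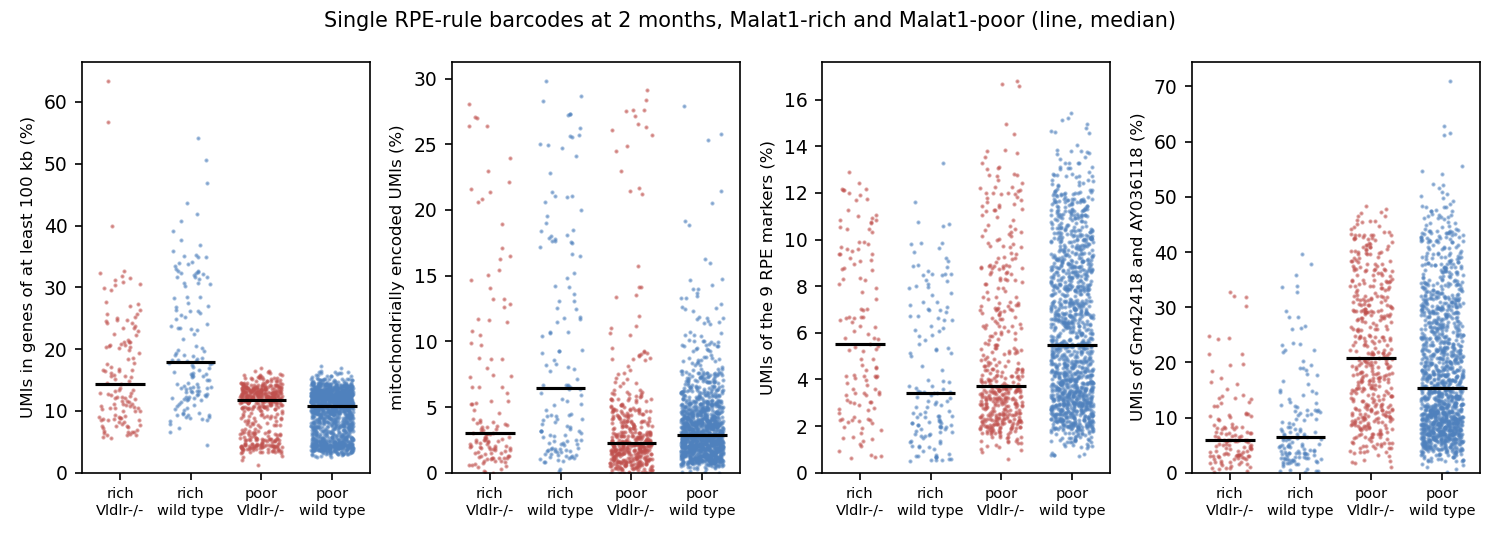
Single RPE barcodes at 2 months, with the share of UMIs (y axes, percent) in genes of at least 100 kb, in mitochondrially encoded genes, in the 9 RPE markers and in the loci Gm42418 and AY036118, for Malat1-rich (rich) and Malat1-poor (poor) barcodes of each genotype; lines are medians. The long-gene share leaves out mitochondrially encoded genes, Malat1 and the loci at least 2-fold lower in Malat1-rich barcodes in both libraries. Of the barcodes shown, only Malat1-rich ones exceed a long-gene share of 17.3%. The loci Gm42418 and AY036118 stand lower there, with medians of 5.90% in the knockout and 6.51% in the wild type.

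The make-up of the Malat1-rich barcodes by mitochondrial share is given as a description, since the rule limited both this share and that of the RPE markers and both are parts of 1 total. Of the knockout barcodes, 62 had under 3% mitochondrial UMIs, 47 had 3 to 15% and 18 had 15 to 30%, and the median RPE marker shares of these strata were 8.17%, 4.63% and 2.28%. In the wild type the strata held 42, 59 and 37 barcodes with marker shares of 6.59%, 3.6% and 1.96%. The long-gene share ran the other way, at 12.7%, 13.6% and 23.4% in the knockout and 14.1%, 15.8% and 31.6% in the wild type. Fewer of the knockout barcodes lay in the upper strata, and the part of this make-up in the genotype comparisons was tested only by lowering the mitochondrial limit.

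Across 10373 genes with at least 30 UMIs in each library's comparison, 1937 (18.7%) exceeded Malat1-poor barcodes by 2-fold or more in both libraries, and 25 (0.241%) fell short of them by as much. The median gene was 0.38 higher on the log2 scale in the knockout and 0.29 in the wild type. Ratios are of CPM with 0.5 counts added to each side. The ratio was above 0 for 7891 of the 10373 genes in the knockout and 6900 in the wild type, the background for the counts of higher list members below. The 18.7% covers both libraries at once, and the 2-fold share of all genes in each library is not given here. Of the 2911 genes of 20 to 50 kb, 511 (17.6%) in the knockout and 558 (19.2%) in the wild type were at least 2-fold higher. The median lengths of the nuclear noncoding and splicing lists below, 22.9 and 20.8 kb, fall in this class. The sign was the same in both libraries for 8146 genes.

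Noncoding RNAs, some of them known to stay on chromatin, led the higher genes. Xist, which coats the inactive X chromosome, had 392.5 CPM in Malat1-rich and 1.85 CPM in Malat1-poor barcodes of the knockout, and 240.6 and 0.402 CPM in the wild type. A UMI of Xist was present in 55.1% of Malat1-rich barcodes of the knockout and 26.8% of the wild type, but in only 1.85% and 0.389% of Malat1-poor ones. Y-linked messenger RNA was found in 37.8% and 65.9% of Malat1-rich barcodes and in 32.1% and 43.4% of Malat1-poor ones. Xist-bearing barcodes were thus rare among Malat1-poor ones, whereas barcodes with Y-linked UMIs were common in both kinds.

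Kcnq1ot1, the antisense RNA of an imprinted domain, stood at 114 CPM against 0.462 in the knockout and 149 against 1.37 in the wild type. Neat1, the scaffold of paraspeckles, was 3.99 higher on the log2 scale in the knockout (interval 3.58 to 4.47) and 4.89 in the wild type (4.58 to 5.23). Lncpint, a p53-induced noncoding RNA, was 6.26 and 6.58 higher. Gm46218, a gene without an assigned role, had 107 UMIs in 54 knockout and 85 UMIs in 44 wild-type Malat1-rich barcodes and 0 in Malat1-poor ones. Set against 3 counts over the group in place of 0, its levels were 40.4-fold higher in the knockout and 109-fold in the wild type. The lower interval bounds were 5.01 and 6.44 on the log2 scale. Of 11 measured noncoding RNAs listed as nuclear, Malat1 not among them, 8 in the knockout and 9 in the wild type were higher, 8 of them in each library by 2-fold or more, with list medians of 2.83 and 4.89.

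Other genes at the top of the ranking were mostly transcripts annotated as noncoding, with the protein-coding Hs6st3 among them. Where in the cell these transcripts lie was not measured. Hs6st3, a heparan sulfate sulfotransferase gene, was 51.7-fold higher in the knockout with 3 counts in place of 0 (lower interval bound 5.37 on the log2 scale). In the wild type it was 6.06 higher on the log2 scale. Gm26917 was 6.74 and 6.35 higher, and Gm20732 was 5.96 and 6.28 higher. Gm13944 had no UMI in Malat1-poor barcodes. Set against 3 counts, it was 15.5-fold higher in the knockout and 47.6-fold in the wild type, with lower interval bounds of 3.59 and 5.20 on the log2 scale.

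Immediate early genes, whose messengers are short-lived and made on stimulation, were higher in 16 of 16 measured cases in both libraries. The difference was 2-fold or more for 13 in the knockout and 14 in the wild type, with list medians of 3.07 in the knockout and 3.56 in the wild type. The median length of the list was 3.71 kb. Of the 839 genes of 2 to 5 kb, 79 in the knockout and 52 in the wild type were at least 2-fold higher. Fos was 4.86 and 5.61 higher on the log2 scale and Egr1 5.52 and 4.42. Fosb had 48 UMIs against 0 in the knockout and 69 against 1 in the wild type. As background, tissue dissociation induces these genes.

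Genes of splicing factors and speckle proteins were higher in 30 of 30 cases in both libraries, of which 21 in the knockout and 18 in the wild type were at least 2-fold higher. The list medians were 1.36 and 1.39. Ogt, the O-GlcNAc transferase whose transcript keeps a regulated intron, was 3.17 and 3.73 higher on the log2 scale. The splicing kinases Clk1 and Clk4 were 2.73 and 3.11 higher in the knockout and 2.91 and 2.45 in the wild type. Host genes of small nucleolar RNAs had medians of 1.20 and 0.76, with Snhg20 2.93 and 3.29 higher.

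Single transcription factor genes stood above their lists in the Malat1-rich barcodes. Genes of 200 to 500 kb as a whole had median log2 ratios of 1.64 in the knockout and 1.92 in the wild type. The part of gene length in the values below was not tested. Mitf, the pigment cell regulator, was 1.46 higher on the log2 scale in the knockout and 1.75 in the wild type, and Zeb2, a zinc-finger repressor, was 2.23 and 2.00 higher. Nr2f1, an orphan nuclear receptor, was 4.90 and 5.48 higher. Rora, a nuclear receptor that drives clock gene transcription, was 4.66 and 4.93 higher, and Per3, a clock repressor, 1.97 and 2.30. The list medians were 0.61 and 0.60 for RPE transcription factors and 0.40 and 0.82 for the clock, against all-gene medians of 0.38 and 0.29, so the clock list in the knockout lay at the background. The mitochondrially encoded genes were higher in 13 of 13 cases, with medians of 0.84 and 1.55.

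Several lists had medians below those of all genes. RPE transporters, channels and junction genes were lower in Malat1-rich barcodes in 14 of 18 cases in the knockout and 15 of 18 in the wild type, with medians of -0.17 and -0.50. Enpp2, which makes lysophosphatidic acid, was -0.95 and -1.10 on the log2 scale, and the lactate transporter Slc16a1 -0.60 and -1.21. Tjp1, a tight junction scaffold with a long gene body, was 0.74 and 0.99. Lysosomal genes were lower in 19 and 25 of 27 cases, with medians of -0.17 and -0.47, and Psap, the saposin precursor, stood at -0.79 and -0.91. Cytosolic ribosomal protein genes were higher in 75 of 80 cases in the knockout but in 34 of 80 in the wild type, with medians of 0.37 and -0.03. The nuclear genes of complex III had medians of 0.21 and -0.14 and those of complex IV 0.24 and -0.09.

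Among the genes at least 2-fold lower in both libraries, AY036118 was -1.85 in the knockout and -1.89 in the wild type, and Gm42418, which overlaps it on the opposite strand of chromosome 17, was -1.90 and -1.42. Gm42418 held 49883 CPM in Malat1-rich and 186412 CPM in Malat1-poor barcodes of the knockout, and 54986 and 147022 CPM in the wild type. These overlapping loci were counted separately, and how reads of the stretch they share were assigned was not examined. Cmss1, Cdk8, Camk1d, Gphn and Lars2 were lower too, at -2.05, -1.84, -1.66, -2.14 and -2.10 in the knockout and -1.73, -1.48, -1.40, -1.23 and -1.22 in the wild type.

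Above 20 kb the ratios were higher in each longer class of genes. The median log2 ratio of Malat1-rich to Malat1-poor was 0.25 in the knockout and -0.08 in the wild type for genes under 2 kb. It lay between 0.19 and 0.23 in the knockout and between -0.06 and 0.07 in the wild type over the classes between 2 and 20 kb, where the knockout medians had no order by length. It was 0.32 and 0.27 for genes of 20 to 50 kb, 0.91 and 1.13 at 100 to 200 kb, and 2.66 and 3.10 above 500 kb. Of the 117 genes above 500 kb, 102 in the knockout and 108 in the wild type were at least 2-fold higher, against 511 and 558 of the 2911 genes of 20 to 50 kb. The sources used here do not say whether introns were counted.

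**Figure D3:**
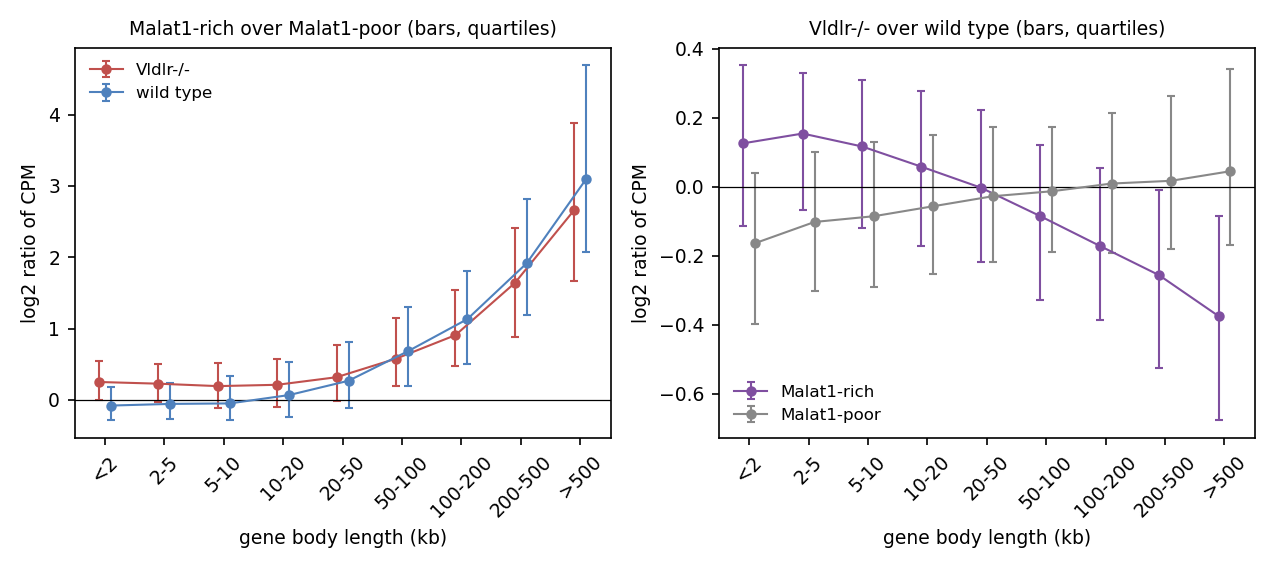
Median log2 ratio of CPM (y axes; bars, quartiles over genes) by gene body length in kb (x axes), left for Malat1-rich over Malat1-poor barcodes in each genotype and right for Vldlr-/- over wild type within Malat1-rich and within Malat1-poor barcodes. The left medians reach 2.66 in the knockout and 3.10 in the wild type above 500 kb; on the right the Malat1-rich medians are 0.13 in the shortest and -0.38 in the longest genes.

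Variation among the Malat1-rich barcodes was ranked by the squared coefficient of variation in excess of counting noise. Over 737 genes the median excess was 0.325 in the knockout and 0.407 in the wild type. Pmel, the fibril protein of melanosomes, had 6.62 and 10.2, and Trpm1, a channel gene of pigment cells, had 4.42 and 3.03. Tmsb4x, an actin-binding peptide, had 5.85 and 24.1, and Igfbp5, a binding protein of insulin-like growth factors, 5.39 and 9.26. The first-ranked gene, Cadm2, rested on 1 barcode for 60% of its UMIs in the knockout and 40% in the wild type. For Tmsb4x 1 barcode held 15.9% and 40.7%, for Pmel 17.1% and 19.8%, and for Igfbp5 13.2% and 18.1%. These shares are of UMIs after thinning to 2000 per barcode.

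A small pigment-rich set stood out among them, described after its values were seen. The 5 genes Pmel, Mlana, Trpm1, Gpnmb and Tyrp1 summed to at least 3000 CPM in 12 of 127 knockout (9.45%) and 15 of 138 wild-type (10.9%) barcodes. Pmel reached 2729 CPM there in the knockout and 3101 in the wild type, against 67.9 and 112 in the other Malat1-rich barcodes. Rpe65 was found in 11 of the 12 and 15 of the 15, at 2250 and 1471 CPM, against 5880 and 5279 in the others. Of the melanocyte markers, Sox10, a neural crest factor, had 75.4 and 36.6 CPM in the set, against 92.2 and 67.4 in the others. The receptor gene Kit had 11.8 and 11.0 CPM, against 11.2 and 9.15. Ednrb, an endothelin receptor gene, had 28.3 and 2.44 CPM, against 11.2 and 14.1, with all 12 of the knockout UMIs in 1 barcode. Mc1r was at 0 in the set in both libraries, and Pax3 had 1 UMI in the knockout and 0 in the wild type. The median depth of these barcodes was 36570 and 52086 UMIs, against 23290 and 17625 in the others, and doublets with melanocytes were not tested beyond these values.

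Within Malat1-rich barcodes, 10987 genes were compared between the genotypes, of which 245 (2.23%) were higher and 315 (2.87%) lower in the knockout by 2-fold or more. The median gene stood at -0.01, with 5424 of the genes higher. Without the 8% highest doublet scores 155 were higher and 478 lower, and by means of single-barcode CPM 588 were lower. Those scores held 19 of the knockout (15.0%) and 6 of the wild-type (4.35%) Malat1-rich barcodes. In Malat1-poor barcodes 155 (1.44%) of 10729 genes were higher and 193 (1.8%) lower by 2-fold or more. The median gene there stood at -0.04, with 4726 of the 10729 genes higher, the background for list values in Malat1-poor barcodes below. Vldlr, the deleted gene, had 150 UMIs in 69 knockout barcodes and 395 UMIs in 105 wild-type barcodes, or 39.2 and 122 CPM. That is a log2 ratio of -1.64 (interval -1.93 to -1.37), against -3.55 in Malat1-poor barcodes, where it had 70 and 2369 UMIs. Which exons these UMIs come from cannot be read from the tables, so they check only that Vldlr RNA was lower.

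Acadsb, a mitochondrial acyl-CoA dehydrogenase gene, showed the same contrast. It had 79 UMIs in knockout and 243 in wild-type Malat1-rich barcodes, a log2 ratio of -1.86, against 7 and 728 UMIs and a ratio of -5.08 in Malat1-poor barcodes. For both genes the knockout level was nearer to wild type in Malat1-rich barcodes.

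The genes named next are the 12 highest and the 12 lowest that met a rule on size, number of barcodes and the levels of other cell classes. Trnp1, a nuclear protein of neural progenitors, was among the clearest. It had 382 UMIs in 79 knockout barcodes and 19 UMIs in 13 wild-type barcodes, 99.8 and 5.89 CPM, with a log2 ratio of 4.05 (interval 3.42 to 4.83) and of 4.38 in Malat1-poor barcodes. Its gene lies at chromosome 4, 133491100 to 133498550 (GRCm38). Gm35082, with no assigned role, lies at chromosome 7, 100675088 to 100677760, and had 108 UMIs in 60 knockout barcodes and 0 in the wild type. With 3 wild-type counts in place of 0, the knockout level was 30.3-fold higher here and 65.1-fold in Malat1-poor barcodes. The lower interval bounds were 4.60 and 5.69 on the log2 scale.

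Cdhr1, a cadherin of the photoreceptor outer segment base (chromosome 14, 37077857 to 37098347), was present in 110 knockout and 54 wild-type barcodes. Its 417 and 37.5 CPM gave a log2 ratio of 3.47 (interval 3.21 to 3.75), and 2.39 in Malat1-poor barcodes. Rod markers summed to 48.1 CPM in knockout and 248 CPM in wild-type Malat1-rich barcodes, and to 89.6 and 55.8 CPM in Malat1-poor ones. Their part in the Cdhr1 level was not tested.

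Erich5 had 82 UMIs in 50 knockout and 5 UMIs in 5 wild-type barcodes, a log2 ratio of 3.66 (interval 2.51 to 5.45). Hddc3, a phosphatase of small nucleotides, had 226 and 44 UMIs in 78 and 31 barcodes, a ratio of 2.10 (1.64 to 2.61) and 2.20 in Malat1-poor barcodes. Thrsp, a regulator of lipogenesis, had 92 and 13 UMIs and a ratio of 2.53, and Klhdc8a, a kelch-domain gene, had 216 and 52 UMIs and a ratio of 1.80. Upk3b, a uroplakin gene, had 432 and 108 UMIs in 76 and 36 barcodes and a ratio of 1.75, and 2900052N01Rik had 137 and 18 UMIs in 49 and 10 barcodes and a ratio of 2.65. These genes were found in 44 or more of the knockout barcodes.

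Others rested on few barcodes. Serpina3n, a secreted protease inhibitor, had 1735 and 118 UMIs in 29 and 11 barcodes, of which 1 barcode held 36.9% in the knockout and 55.9% in the wild type. Its log2 ratio was 3.62 in all, 5.07 in Xist-bearing and 1.85 in Y-bearing barcodes. Serpine3, of the same superfamily, had 2860 and 596 UMIs with 62.2% and 64.6% in 1 barcode. Its log2 ratio was 2.01 over all Malat1-rich barcodes, 4.24 in those with Xist and 0.30 in those with Y-linked RNA. Bcan, a brain proteoglycan gene, was found in 16 knockout and 2 wild-type barcodes.

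Among the lower genes, Pttg1, the securin that guards sister chromatids (chromosome 11, 43420250 to 43426251), had 4 UMIs in 4 knockout barcodes and 279 UMIs in 87 wild-type barcodes. Its 1.04 and 86.5 CPM gave a log2 ratio of -6.20 (interval -8.26 to -5.0), and -6.77 in Malat1-poor barcodes. Arl6ip1, an ER-shaping membrane protein (chromosome 7, 118118891 to 118129662), was abundant and evenly spread, with 1173 CPM in 121 knockout and 4206 CPM in 132 wild-type barcodes. The ratio was -1.84 (-1.89 to -1.79), and -1.96 in Malat1-poor barcodes.

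Trim12a, of the interferon-linked TRIM family (chromosome 7, 104299894 to 104315466), had 4 UMIs in the knockout and 62 in the wild type, a ratio of -4.04. Ccnjl, a cyclin-like gene, had 32 and 147 UMIs in 22 and 62 barcodes, a ratio of -2.43 (-3.05 to -1.89), and -2.52 in Malat1-poor barcodes. Slc4a10, a bicarbonate transporter, had 9 and 79 UMIs, a ratio of -3.31 (-4.56 to -2.38), and -1.98 in Malat1-poor barcodes. The replication-dependent histone gene Hist2h2aa1 had 9 and 46 UMIs, with ratios of -2.54 and -2.18 in Malat1-rich and Malat1-poor barcodes.

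Opn4, which encodes melanopsin, had 2 UMIs in 2 knockout barcodes and 30 in 19 wild-type barcodes, a ratio of -3.86 (-7.26 to -2.18). Grm7, a glutamate receptor with a long gene body, had 69 and 233 UMIs in 19 and 53 barcodes and a ratio of -2.00, against -1.04 in Malat1-poor barcodes. Cacna2d3, a calcium channel subunit, had 7 and 43 UMIs, and Gm19689 had 3 and 27, with ratios of -4.95 in Xist-bearing and -1.97 in Y-bearing barcodes. Gpx3, a secreted glutathione peroxidase, rested on 1 wild-type barcode that held 72.5% of its 415 UMIs there, against 5 UMIs in the knockout. Its ratio was -6.49 in all, 0.33 in Xist-bearing and -7.10 in Y-bearing barcodes. Cngb3, a cone channel subunit, was found in 10 knockout and 20 wild-type barcodes, with 1 barcode holding 36.7% and 29.4% of its 49 and 333 UMIs. Its ratio was -3.0 in all, -1.88 in Xist-bearing and -6.83 in Y-bearing barcodes. Cone markers summed to 23.2 CPM in the knockout and 27.6 in the wild type.

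**Figure D4:**
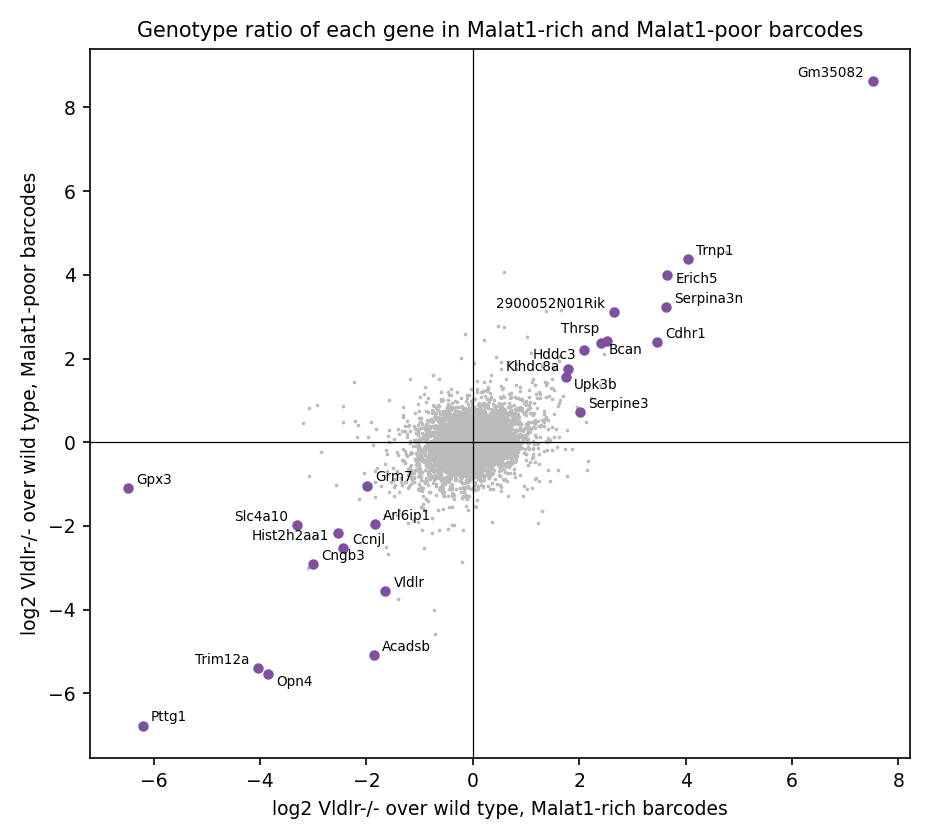
Each gene's log2 ratio of Vldlr-/- over wild type in Malat1-rich (x axis) and Malat1-poor (y axis) barcodes at 2 months, with 0.5 counts added to each side; purple points are the named genes with Vldlr and Acadsb, grey points the others measured in both. Trnp1 is 4.05 and 4.38, Pttg1 is -6.20 and -6.77, and Vldlr and Acadsb lie nearer to 0 in Malat1-rich than in Malat1-poor barcodes.

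The named genes were chosen for their ratio over the same barcodes, so their sign within subsets is a description and was largely set by that choice. Within Xist-bearing barcodes the 12 higher genes were higher in 12 cases, and within Y-bearing barcodes in 12. The 12 lower genes were lower in 11 and 12 cases, the exception being Gpx3 with 0.33 in Xist-bearing barcodes. Without the mixed barcodes 12 of 12 kept their direction in each set. Among barcodes with a long-gene share at or above the median, 11 of the 12 higher genes were higher, the exception being Bcan at -0.28.

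At 1 month the RPE barcodes were too few to split by Malat1, so all 172 knockout and 236 wild-type ones were used. Of the named genes with at least 10 UMIs there, 9 of 9 higher and 3 of 3 lower ones had the same sign, with the whole interval on that side for 8 and 3. Trnp1 had 39 UMIs in the knockout and 1 in the wild type, Cdhr1 had 239 and 38, and Pttg1 had 3 and 95. The Arl6ip1 ratio was -1.93. Vldlr had 4 and 78 UMIs, a ratio of -3.62. These are other libraries of the same genotypes at another age, not replicates of the 2-month comparison. By default, Cell Ranger 7.0.1, named in the 2-month headers, counts intron reads and 6.0.2, named in the 1-month headers, does not, so levels at the ages may rest on different reads.

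Cholesterol synthesis genes were higher in the knockout in 20 of 22 cases, with a median log2 ratio of 0.52, against 0.31 in Malat1-poor barcodes and 0.35 in the RPE barcodes at 1 month, where 14 of the genes were measured. Sqle, the squalene epoxidase, had 363 UMIs in the knockout and 109 in the wild type, a ratio of 1.48 (interval 1.18 to 1.81). Fdps, which makes farnesyl diphosphate, was 1.08, and Dhcr7, a terminal reductase, was 1.06. Of the genes of fatty acid and lipid droplet synthesis, the desaturases Scd1 and Scd2 were 1.38 and 0.71, while the list median was 0.17. The all-gene medians of -0.01 in Malat1-rich and -0.04 in Malat1-poor barcodes are the levels to read list medians against. For the 1-month barcodes neither this median nor the share of all genes that were higher is given here.

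Mitochondrially encoded genes were lower in the knockout in 13 of 13 cases, with a median of -0.69, against -0.09 in Malat1-poor barcodes and -0.11 at 1 month. The complex I subunits mt-Nd6, mt-Nd5, mt-Nd2 and mt-Nd1 stood at -1.09, -0.88, -0.83 and -0.81. The median mitochondrial share of a Malat1-rich barcode was 3.04% in the knockout and 6.46% in the wild type. With the mitochondrial limit at 15% the list median was -0.44, in Xist-bearing barcodes -0.39 and in Y-bearing ones -1.15. Nuclear genes of complex I had a median of 0.07 with 25 of 38 higher, against -0.20 with 2 of 38 higher in Malat1-poor barcodes. Those of complexes III, IV and V had medians of -0.07, -0.03 and -0.03, against -0.35, -0.34 and -0.28 in Malat1-poor barcodes and -0.47, -0.29 and -0.37 at 1 month. As background, a high mitochondrial share also marks damaged cells, and the part of such cells in this result was not tested.

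Cytosolic ribosomal protein genes were higher in the knockout in 77 of 80 cases with a median of 0.30, against -0.06 in Malat1-poor barcodes and 0.39 at 1 month. Rps27, Rpl38, Rps21 and Rps29 were 0.72, 0.68, 0.62 and 0.62. This call did not hold in all subsets: the median was 0.68 in Y-bearing barcodes, -0.03 in Xist-bearing ones, 0.07 among barcodes with a high long-gene share and 0.16 when each gene was set against genes of its own length. Genes of 2 to 5 kb as a whole stood at 0.15, and the median length of the ribosomal protein genes was 3.33 kb. The part of gene length in the ribosomal protein median was not tested beyond the setting by length.

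RPE transporters, channels and junction genes were higher in 14 of 18 cases with a median of 0.28, against -0.06 in Malat1-poor barcodes. Cdh3, the P-cadherin of RPE junctions, was 0.85, the sodium pump beta subunit Atp1b2 was 0.56, and the glucose transporter Slc2a1 was 0.55. Genes of the integrated and ER stress responses had a median of 0.24, with Sdf2l1 at 0.85 and the protein disulfide isomerase Pdia6 at 0.71. Lysosomal and outer segment phagocytosis genes had medians of 0.14 each. Among the lysosomal genes Ctsd, the cathepsin that degrades outer segment protein, was 0.71, while the acid lipase Lipa was -0.67.

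Melanosome genes were lower in 12 of 17 cases with a median of -0.27, whereas at 1 month 9 of 12 were higher with a median of 0.30. Pmel was -1.27, Mlana -0.95, Trpm1 -0.78 and Mlph, which links melanosomes to myosin, -1.33. Without the pigment-rich barcodes the list median was 0.000883, and 1 barcode held 25% of Pmel UMIs in the knockout and 21% in the wild type. Immediate early genes were lower in 12 of 17 cases with a median of -0.29, including the phosphatase gene Dusp1 at -1.41. Clock genes had a median of -0.22, against 0.13 at 1 month, with Per1 at -1.19. Splicing genes had -0.20, against 0.37 at 1 month.

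Complement genes had a median of 0.32, with C4b at 1.09 and C2 at -1.47. Angiogenic and antiangiogenic factors stood at 0.03, glycolysis at -0.05, the TCA cycle at -0.08 and fatty acid oxidation at 0.03. Genes of mesenchymal transition were higher in 13 of 16 cases with a median of 0.44. Vim, an intermediate filament gene, had a ratio of 1.38 (interval 1.21 to 1.56) over 89 knockout and 75 wild-type barcodes, but Tagln and Tpm2 rested on 1 barcode for 79% and 88% of their knockout UMIs. The list median was -0.43 among barcodes with a high long-gene share. Mural markers were higher in the knockout, at 665 against 453 CPM, and their part in this list was not tested.

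**Figure D5:**
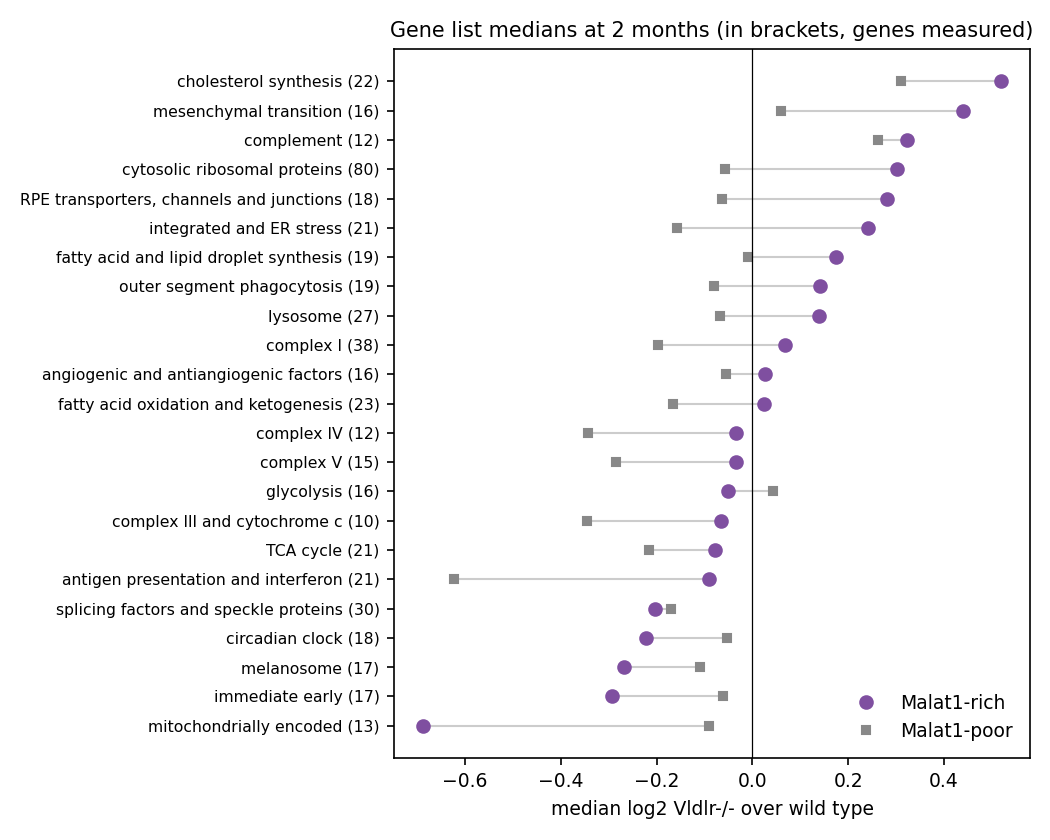
Median log2 ratio of CPM of Vldlr-/- over wild type (x axis) for each gene list (rows, with the number of genes measured), in Malat1-rich and Malat1-poor barcodes at 2 months. Cholesterol synthesis lies highest in Malat1-rich barcodes at 0.52 and the mitochondrially encoded genes lowest at -0.69, against 0.31 and -0.09 in Malat1-poor barcodes.

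Hypoxia-induced genes were higher in 11 of 13 cases with a median of 0.17, and antioxidant and glutathione genes in 17 of 25 with 0.12. Genes of TGF-beta and BMP signalling were lower in 15 of 23 cases with a median of -0.14, and visual cycle genes outside the marker rule in 6 of 9 with -0.12. Autophagy, heat shock and Wnt lists had medians of 0.02, 0.08 and 0.03.

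Single genes of other lists, or of those just given, included Sfrp5, a secreted Wnt antagonist, at 1.64, Dkk3, of the Dickkopf family, at -1.51, the RPE transcription factor Sox9 at 0.64 and the eye field factor Pax6 at -1.48. Gsr, the glutathione reductase, was 1.01, and the iron carrier Trf was 0.46 in Malat1-rich against -0.16 in Malat1-poor barcodes. The difference of these ratios between the kinds of barcode was not tested.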

How the data were processed

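The authors deposited raw UMI counts per gene and barcode of 4 droplet libraries, made with Cell Ranger 6.0.2 (1 month) and 7.0.1 (2 months) per the file headers; mm9, Seurat 4.0 and Cell Ranger 3.0 appear in the submitters' processing notes. At 2 months, 1140 of 1634 knockout and 2047 of 2540 wild-type barcodes passed the limits of 300 genes and 30% mitochondrial UMIs. Counts were summed over barcodes, scaled to CPM and compared as log2 ratios with 0.5 counts added. Genes needed 30 UMIs, and 2-fold ratios were called. A group at 0 was set at 3 counts over the group. Named genes were called genes found in at least 10 barcodes of the higher library, with at least 0.25 of the level in every other class of at least 30 barcodes (cone-like barcodes were fewer), ranked by the interval bound nearest 0, 12 per direction. Genes named between Malat1-rich and Malat1-poor barcodes came first by the smaller ratio of both libraries. Up to 4 genes per list were named by the size of their ratio. Scrublet (scanpy 1.11.5) called 5 knockout (0.439%) and 0 wild-type barcodes, too few to have worked. Gene lengths and positions came from GENCODE M21 (GRCm38). Functions were tested on simulated data. A few single genes are not reported here. Members and gene lists were chosen with earlier results of these data known.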

Additional observations from a re-analysis of the deposited data

Results flagged for a closer look

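The genes and the list given here had genotype ratios of opposite sign in Malat1-rich and Malat1-poor barcodes, picked among genes by intervals that did not span 0 and among lists by medians beyond the typical interval of their genes. Medians of other lists also differed in sign, without passing that limit, such as ribosomal proteins at 0.30 and -0.06, lysosome at 0.14 and -0.07 and complex I at 0.07 and -0.20. The difference itself was not tested, since each kind of barcode has 1 library per genotype. On the log2 scale, knockout over wild type, the median of RPE transporters, channels and junction genes was 0.28 in Malat1-rich and -0.063 in Malat1-poor barcodes. In Malat1-poor barcodes this list lay near the all-gene median of -0.043 and passed its limit of 0.062 only narrowly. The glucose transporter Slc2a1 was 0.55 in Malat1-rich and -0.13 in Malat1-poor barcodes. Hexokinase 2, Hk2, ran the other way at -0.90 and 1.33. Among genes of the respiratory complexes, whose lists had medians of -0.07 (complex III), -0.03 (complex IV) and -0.03 (complex V) in Malat1-rich barcodes, Ndufa2 was 0.32 and -0.16, Uqcr11 0.15 and -0.30, Cox6b1 0.15 and -0.24, and Cox7c 0.13 and -0.25. Atp5e was 0.16 and -0.40, and Atp5k was 0.21 and -0.13. The galactosidase Glb1 was 0.44 and -0.23, and Pdia6 was 0.71 and -0.16.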

How the results depend on the processing

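With 1 library per group no replicate could be left out. No paired analysis was possible because each group has 1 library. The wild-type share of Malat1-rich barcodes was 7.15% with the mitochondrial limit at 15% and 7.40% with RPE markers at 2% or more. Genes at least 2-fold higher in the knockout numbered 155 without the 8% highest doublet scores (478 lower), 49 after thinning (71 lower), 584 at a minimum of 10 UMIs (648 lower), 87 at 100 UMIs (92 lower) and 393 in Y-bearing barcodes; 588 were lower by means of single-barcode CPM and 154 in Xist-bearing barcodes. Between Malat1-rich and Malat1-poor barcodes, thinning left 395 higher and 40 lower genes, a minimum of 100 UMIs 1030 higher, and 94, 38 and 60 were lower with median-ratio scaling, at 10 UMIs, and with the loci lower in Malat1-rich barcodes taken out of the total. Fewer genes were measured after thinning. The median of mitochondrially encoded genes was -0.74 with Malat1 at 10000 CPM, -0.44 at the 15% limit, -0.59 with RPE markers at 2%, -0.62 without the highest doublet scores, -0.53 thinned, -0.55 by single-barcode means, -0.74 with mitochondrial genes and Malat1 out of the total, -0.63 on either side of the median long-gene share, -0.81 centred by length, -0.91 without pigment-rich barcodes, -0.39 in Xist-bearing and -1.15 in Y-bearing barcodes. The ribosomal protein median was 0.15 at the 15% limit, 0.10 without the highest doublet scores, 0.072 at a high long-gene share, 0.16 centred by length, 0.68 in Y-bearing and -0.035, the opposite sign, in Xist-bearing barcodes. Other signs turned, with causes not tested: mesenchymal transition at -0.0078 (RPE markers at 2%) and -0.43 (high long-gene share); melanosome genes at 0.00718 (single-barcode means), 0.17 (high long-gene share) and 0.000883 (without pigment-rich barcodes); Bcan at -0.28 (high long-gene share); Gpx3 at 0.33 (Xist-bearing). Against Malat1-poor barcodes, extracellular matrix genes were -0.42 in the knockout after thinning, from 0.92 in the main setting. Ribosomal protein genes were -0.0067 in the knockout with median-ratio scaling, from 0.37. Complement genes were -0.037 in the knockout and -0.062 in the wild type at 100 UMIs, from 1.37 and 1.67. The settings for length, long-gene share, sex-linked RNA, pigment-rich barcodes and the loci were chosen after seeing the data. The cholesterol synthesis median kept its direction under every setting tried. Counts at 30 UMIs limit single genes to large ratios.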

Other observations

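Several of the 24 genes named between the genotypes lie near each other. Chromosome 7 holds 5 of them, with 7.28% of the 10987 genes measured, and chromosome 14 holds 4, with 3.63%. Pttg1 and Ccnjl, both lower in the knockout, are 102.5 kb apart on chromosome 11. Opn4, lower, and Cdhr1, higher, are 2478 kb apart on chromosome 14. On chromosome 7, Gm35082, higher, lies 3622 kb from Trim12a, lower. None of the named genes lies on chromosome 19, where Vldlr is. These positions were looked at after the genes were known, and no test was made.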
